A study of Mus musculus with 12 samples.

Results

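The genes described here are Aff1 and 9 other genes of the super elongation complex, its kinase and the kinase's inhibitor: Aff4, Ell, Ell2, Eaf1, Mllt1, Mllt3, Cdk9, Ccnt1 and Hexim1. They were taken by symbol from a count table of 55487 mouse genes, and all 10 passed the filter on low counts that left 18134 genes for testing. Aff1 was picked because its level fell in Pcbp1 knockout cells in the epiblast-like condition and not in the naive one. Its differences between genotypes and between conditions are therefore given as a description with no test, and the other 9 genes were chosen because they belong to the same machinery.

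Polyadenylated RNA was sequenced from mouse embryonic stem cells of the line E14 Tg2a (Bay Genomics) in a study of the RNA-binding protein PCBP1 in the passage from naive to primed pluripotency. There were 4 groups of 3 libraries each, and all carried the same line background. EpiLC KO libraries came from 3 independent Pcbp1 knockout clones kept for 48 h in N2B27 medium with bFGF, Activin A and 1% KOSR on fibronectin, which gives epiblast-like cells (EpiLCs), a culture model of the early postimplantation epiblast. EpiLC WT libraries came from 3 independent control clones (named Scr in the series text and WT in the sample labels) under the same treatment. Naive KO and naive WT libraries came from the same kinds of clone in 2i-LIF-N2B27 medium, in which PD0325901 inhibits MEK and CHIR99021 inhibits GSK3β. P-values measure the spread between clones within the groups. The main fit did not pair naive and EpiLC libraries of a clone, also in the contrasts between conditions and the interaction. Fits with the clone as a block are named where they are used.

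Libraries held 27146744 to 42204511 counts. The targeted gene Pcbp1 had 250.3, 301.8 and 264.9 CPM (the count scaled by library size and TMM factor) in EpiLC KO, against 692.1, 511.9 and 591.5 CPM in EpiLC WT, and 295.3, 302.5 and 302.9 CPM in naive KO, against 475.4, 417.9 and 474.0 CPM in naive WT. Pcbp1 RNA was thus lower in every KO library and still present in all of them. Summed over 8 formative pluripotency markers, levels were 3738 to 3913 CPM in EpiLC KO and 2988 to 5336 CPM in EpiLC WT, and 109.6 to 187.6 CPM in naive KO and 110.2 to 151.6 CPM in naive WT, so both genotypes carried the markers of their labelled condition. EpiLC WT replicate 2 stood apart from the other 2 EpiLC WT libraries, with 717.3 CPM summed over 9 naive markers, against 209.1 and 199.7 CPM in replicates 1 and 3. Leaving it out gave 3117 called genes (Benjamini-Hochberg adjusted p under 0.05 in the edgeR quasi-likelihood test) between EpiLC KO and EpiLC WT, against 2734 with it.

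RNA polymerase II stops shortly after it starts on many genes, held by the factors NELF and DSIF, and leaves this pause when the kinase P-TEFb, made of CDK9 and cyclin T1, phosphorylates them and the polymerase. Much P-TEFb is stored in an inactive particle with HEXIM1 and 7SK RNA, and the super elongation complex is an active form, in which AFF1 or AFF4 is the scaffold that holds P-TEFb, an ELL protein, an EAF protein and a YEATS-domain protein (ENL, encoded by Mllt1, or AF9, encoded by Mllt3). The complex is known for the fast induction of heat shock, immediate early and retinoic acid responsive genes, in mouse embryonic stem cells among others, and AFF1, AFF4, ENL, AF9 and ELL are all partners of MLL1 in leukaemia fusions.

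The sequences around the transcription starts of the 2 paralogous scaffold genes are shown because the 2 genes moved apart in these libraries. Windows of 300 bases (250 before the RefSeq start and 50 from it on, build GRCm38.p6) were available for all 10 genes, with 2 starts each for Aff1 and Mllt3. Both Aff1 windows lie inside the annotated span of Aff1 (chromosome 5, 103692374 to 103855322, + strand). Capitals mark GGGCGG or its reverse complement, the core of a GC box.
Aff1 start 1, chr5:103753912-103754211, + strand: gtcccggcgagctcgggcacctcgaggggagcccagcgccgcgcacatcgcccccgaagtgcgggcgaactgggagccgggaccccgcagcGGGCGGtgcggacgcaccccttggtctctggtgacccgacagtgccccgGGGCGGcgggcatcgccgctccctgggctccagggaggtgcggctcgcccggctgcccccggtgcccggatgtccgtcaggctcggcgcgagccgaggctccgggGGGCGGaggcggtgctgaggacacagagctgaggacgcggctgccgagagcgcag
Aff1 start 2, chr5:103754323-103754622, + strand: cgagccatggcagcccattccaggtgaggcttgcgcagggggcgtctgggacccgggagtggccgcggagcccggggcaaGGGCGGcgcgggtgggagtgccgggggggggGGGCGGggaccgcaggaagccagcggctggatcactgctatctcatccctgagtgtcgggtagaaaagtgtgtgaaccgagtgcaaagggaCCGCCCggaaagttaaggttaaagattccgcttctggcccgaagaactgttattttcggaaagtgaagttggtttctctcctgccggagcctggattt
Aff4, chr11:53350517-53350816, + strand: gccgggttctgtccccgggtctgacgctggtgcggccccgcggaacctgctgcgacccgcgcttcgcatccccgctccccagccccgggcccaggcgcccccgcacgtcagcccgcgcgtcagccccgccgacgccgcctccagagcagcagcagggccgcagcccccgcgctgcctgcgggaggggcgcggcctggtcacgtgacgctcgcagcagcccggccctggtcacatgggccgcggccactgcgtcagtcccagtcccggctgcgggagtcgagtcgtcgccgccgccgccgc

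The Aff1 windows held 40 and 22 CpG dinucleotides (77.3% and 63.0% GC) and the Aff4 window 44 (79.0% GC), where the median over all 32851 RefSeq windows of the same length was 7 CpG and 52.7% GC. GGGCGG was searched on both strands and was found 3 times in each Aff1 window and 0 times in the Aff4 window. Of the 12 windows of the 10 genes, 9 held GGGCGG, against 35.7% of all windows, 7 held CCAAT, against 37.4%, and 0 held TATAAA, against 13.6%. Such matches describe the letters of these windows only.

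Aff1, the scaffold also known as AF4, was low in EpiLC KO. Its levels were 90.0, 108.2 and 113.6 CPM in EpiLC KO, against 225.6, 214.1 and 240.0 CPM in EpiLC WT. The groups did not overlap, as 33.3% of all genes tested did not: the highest EpiLC KO library was at 113.6 CPM and the lowest EpiLC WT library at 214.1 CPM. In naive cells the Aff1 levels were 402.4, 410.6 and 456.2 CPM in naive KO, against 381.7, 419.1 and 420.2 CPM in naive WT, and these groups overlapped. In raw counts Aff1 had 3920 to 4096 in the EpiLC KO libraries and 5732 to 15825 in the other 9, so counting error is small beside the spread between clones.

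As a description with no test, the log2 fold change of Aff1 was -1.12 ± 0.1 (SE) in EpiLC KO over EpiLC WT, a 2.18-fold lower level, and 0.06 ± 0.0988 in naive KO over naive WT. The difference of the 2 effects was -1.18 ± 0.14. Changes written with ± from here on are log2 fold changes with their SE, unless an SD is named. The pooled SD of log2 CPM of Aff1 within groups was 0.116. EpiLC KO values were also lower than naive KO values by 4.07-fold (log2 -2.03 ± 0.103), with no overlap, where 64.2% of all genes tested did not overlap. Leaving out any single library kept the EpiLC difference between -1.19 and -1.03. The 20 tested genes that flank Aff1 had a median log2 fold change of -0.315 in EpiLC KO over EpiLC WT, and 5 of them were called, where 15.1% of all genes tested were called. For the other members this flanking median ran from -0.285 (Ell) to 0.187 (Mllt1). In EpiLC KO replicates 1, 2 and 3 the median of the genes flanking Aff1 was -0.415, -0.239 and -0.206 relative to the EpiLC WT mean, where Aff1 itself was at -1.33, -1.06 and -0.99. Aff1 was picked for its low level in EpiLC KO and its neighbours were not, so the gap between them is a description only.

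Markers of endoderm moved with the genotype in EpiLCs. Of 8 endoderm markers, 7 were called higher in EpiLC KO, where 7.22% of all genes tested were called higher. The list summed to 29.8 to 40.0 CPM in EpiLC KO, against 6.83 to 13.2 CPM in EpiLC WT, with none of the 8 at 0. Foxa2 (0.735 to 0.951 CPM in EpiLC KO, against 0.075 to 0.161 CPM in EpiLC WT), Afp, Sox7 and Sox17 passed the filter on low counts through EpiLC KO. Their calls in that direction were thus partly set by the filter. Mesoderm markers, of which 2 of 5 tested were called higher beside the same 7.22%, summed to 14.03 to 20.4 CPM in EpiLC KO, against 5.92 to 10.4 CPM in EpiLC WT. Most of that sum was Eomes (12.21 to 17.49 CPM in EpiLC KO, against 4.755 to 9.525 CPM in EpiLC WT). Of 4 neural markers tested 1 was called higher, and the list summed to 36.19 to 47.8 CPM in EpiLC KO, against 27.04 to 50.08 CPM in EpiLC WT. Of 4 fibroblast markers tested 0 were called (lowest adjusted p = 0.0746) and Thy1 had a log2 fold change of -0.57, while the sum of the list was 18.1 to 32.6 CPM in EpiLC KO, against 9.00 to 17.96 CPM in EpiLC WT. Naive markers summed to 228.2 to 351.2 CPM in EpiLC KO, against 199.7 to 717.3 CPM in EpiLC WT. Their part in the Aff1 values was not tested, and in bulk RNA fewer cells with a transcript and less of it per cell cannot be told apart.

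Between the conditions in control cells, Aff1 was at 225.6, 214.1 and 240.0 CPM in EpiLC WT, against 381.7, 419.1 and 420.2 CPM in naive WT. The groups did not overlap, where 59.2% of all genes tested did not, and the log2 difference was -0.85 ± 0.0996 (-0.90 to -0.81 without any single library). Both groups are among the values that Aff1 was picked on, so no test is given. Over the 4 groups the order of the Aff1 level was EpiLC KO lowest, then EpiLC WT, then both naive groups, and of the neighbours in this order only naive KO and naive WT overlapped.

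**Figure D1:**
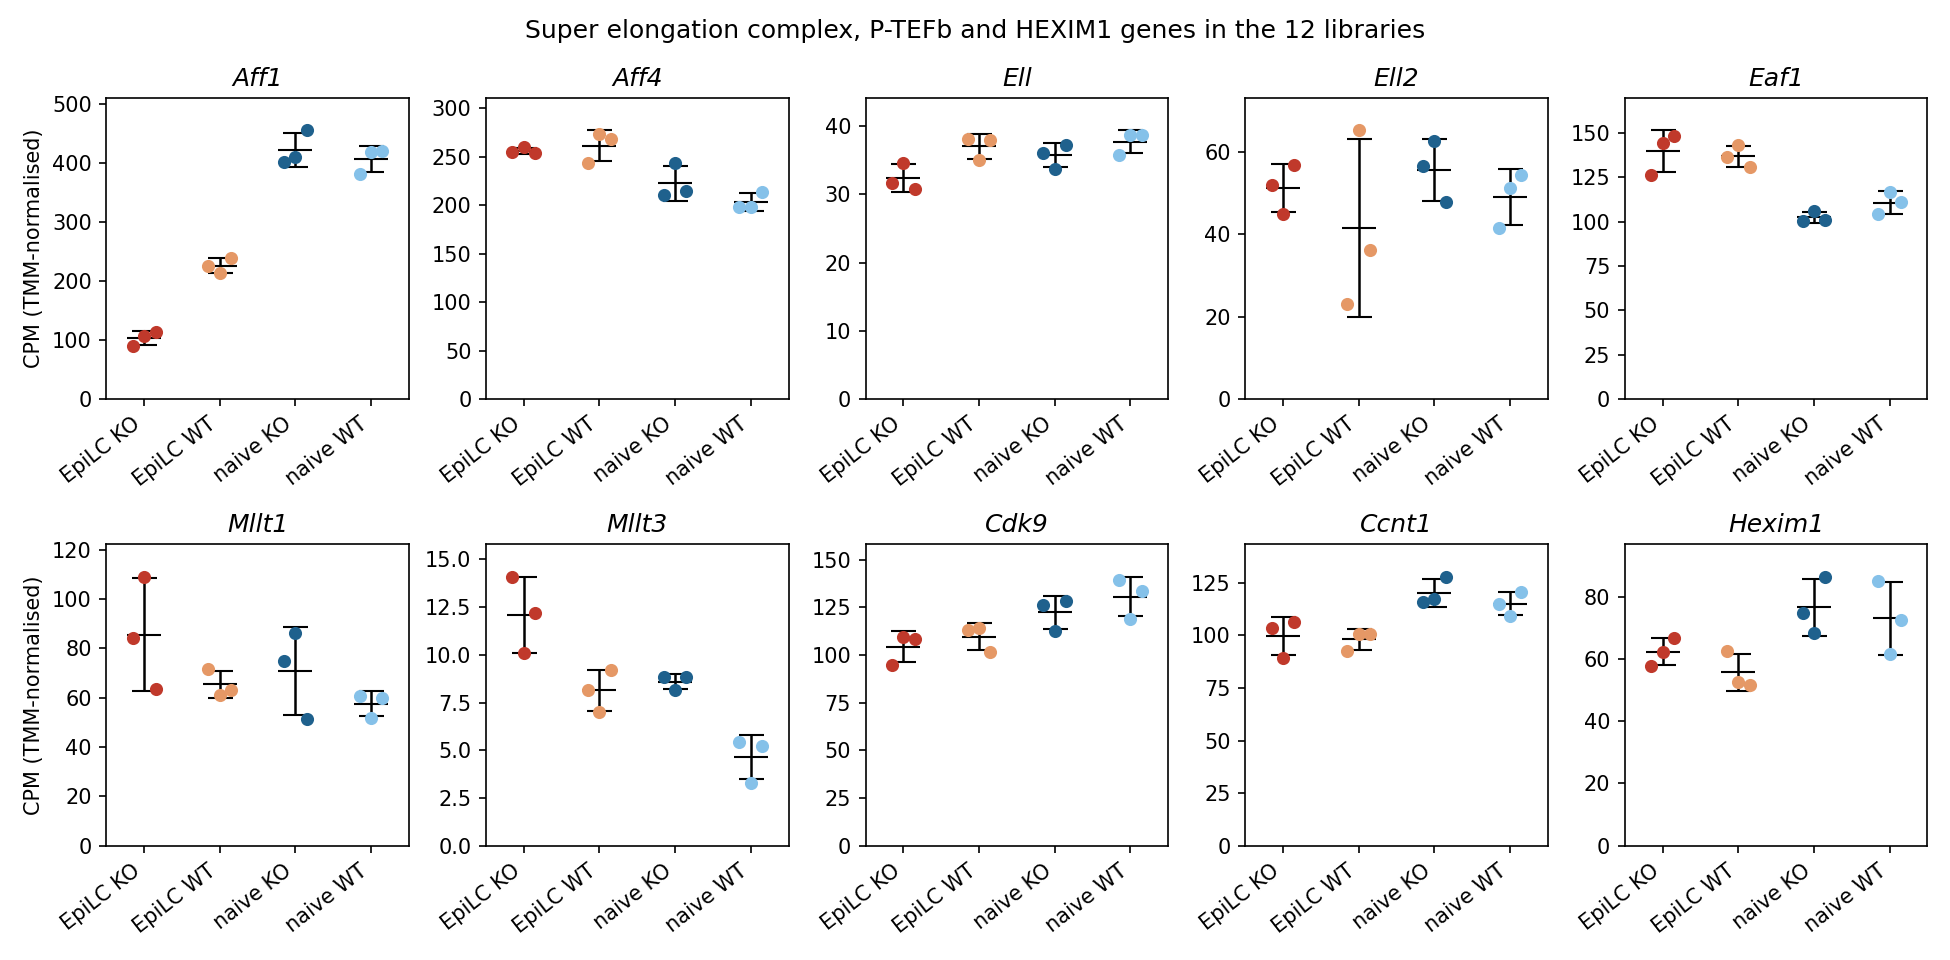
Level of each of the 10 genes in CPM (TMM-normalised) in the 3 libraries of EpiLC KO, EpiLC WT, naive KO and naive WT, each panel with its own linear axis from 0. Points are libraries and bars show the mean ± SD (n = 3); Aff1 lies at 90.0 to 113.6 CPM in EpiLC KO and at 214.1 to 240.0 CPM in EpiLC WT, and of the other 9 genes 2 in EpiLCs (Ell and Mllt3) and 1 in naive cells (Mllt3) have no overlap of KO and WT points, against 33.3% and 30.4% of all genes tested.

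Aff4, the other scaffold, gave no call between KO and WT. It had 254.8, 259.6 and 253.9 CPM in EpiLC KO, against 243.1, 273.0 and 267.8 CPM in EpiLC WT, and 210.7, 243.7 and 214.6 CPM in naive KO, against 198.1, 198.0 and 213.9 CPM in naive WT. KO and WT overlapped in both conditions. The log2 fold change was -0.03 ± 0.0837 in EpiLCs (edgeR adjusted p = 0.855), with a 95% interval of -0.22 to 0.16, and 0.13 ± 0.0838 in naive cells (adjusted p = 0.366), with an interval of -0.06 to 0.33. Aff4 was higher in EpiLC WT than in naive WT, by 0.36 ± 0.0839 (adjusted p = 0.00291), the opposite direction to Aff1, and every EpiLC WT library lay above every naive WT library. Of all genes tested, 59.2% did not overlap between these groups in either direction.

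Because CPM do not allow for transcript length, levels of different genes were compared per kilobase of summed exon length. On that scale Aff1 made up 33.4%, 37.2% and 38.9% of the sum of Aff1 and Aff4 in EpiLC KO, against 56.9%, 52.7% and 56.0% in EpiLC WT. It made up 73.1%, 70.6% and 75.1% in naive KO, against 73.3%, 75.1% and 73.6% in naive WT. Aff1 RNA was thus the larger part in all 9 libraries outside EpiLC KO and the smaller part in all 3 EpiLC KO libraries. The choice of Aff1 fixes the direction of this difference.

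**Figure D2:**
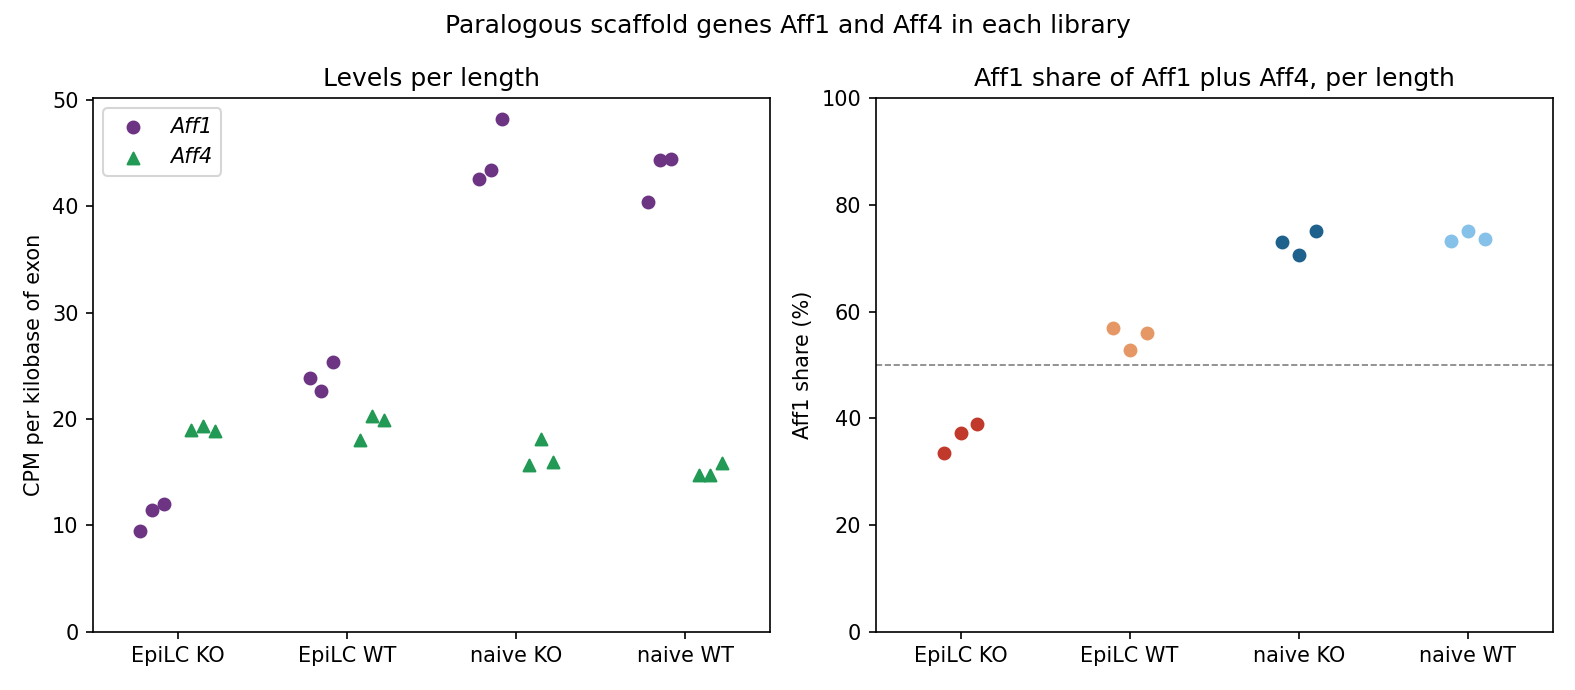
Left, level of Aff1 (circles) and Aff4 (triangles) in CPM per kilobase of exon in each library of the 4 groups; right, Aff1 as a percentage of Aff1 plus Aff4 on that scale, with a dashed line at equal levels. Points are libraries: the 3 EpiLC KO libraries lie at 33.4% to 38.9%, below the line, and the 3 EpiLC WT libraries at 52.7% to 56.9%, above it.

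Among the 10 genes, Aff1 ranked first per kilobase in naive KO (44.7 ± 3.06 CPM per kb, SD, n = 3) and in naive WT (43.0 ± 2.32), above Cdk9, the next gene, with no overlap between their libraries. It ranked sixth in EpiLC KO, at 11.0 ± 1.31 CPM per kb, where its libraries overlapped those of Ccnt1 and Ell. In EpiLC WT it was at 24.0 ± 1.37 CPM per kb, second to Eaf1 with overlap, and it also overlapped Cdk9. Mllt3 was last in every group, at 1.01 CPM per kb in EpiLC KO, 0.678 in EpiLC WT, 0.716 in naive KO and 0.387 in naive WT, and Ell2 was next to last in every group.

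Calls between KO and WT among the other members are given beside the shares of all genes called. With 9 genes, such counts do not set the members apart from all genes. Of these 9 genes, 0 were called between EpiLC KO and EpiLC WT by the edgeR quasi-likelihood test, where 15.1% of all genes tested were called (7.22% higher and 7.86% lower). At an unadjusted p under 0.05 the count was 1, and DESeq2 called 1, both Mllt3. No share of all genes is given at either of these settings. Over the alternatives tried for this comparison, DESeq2 among them, 1375 to 3547 of all genes were called. In naive cells 1 of the 9 was called, Mllt3, where 9.23% of all genes were called (4.27% higher and 4.95% lower). For the difference between both knockout effects 0 of the 9 were called by edgeR, by DESeq2 or at an unadjusted p under 0.05. Of all genes, edgeR called 0.381% there (0.259% higher and 0.121% lower), and DESeq2 called 516 genes. The median log2 fold change of the 9 was 0.03 in EpiLCs and 0.07 in naive cells, against 0 over all genes in either condition.

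**Figure D3:**
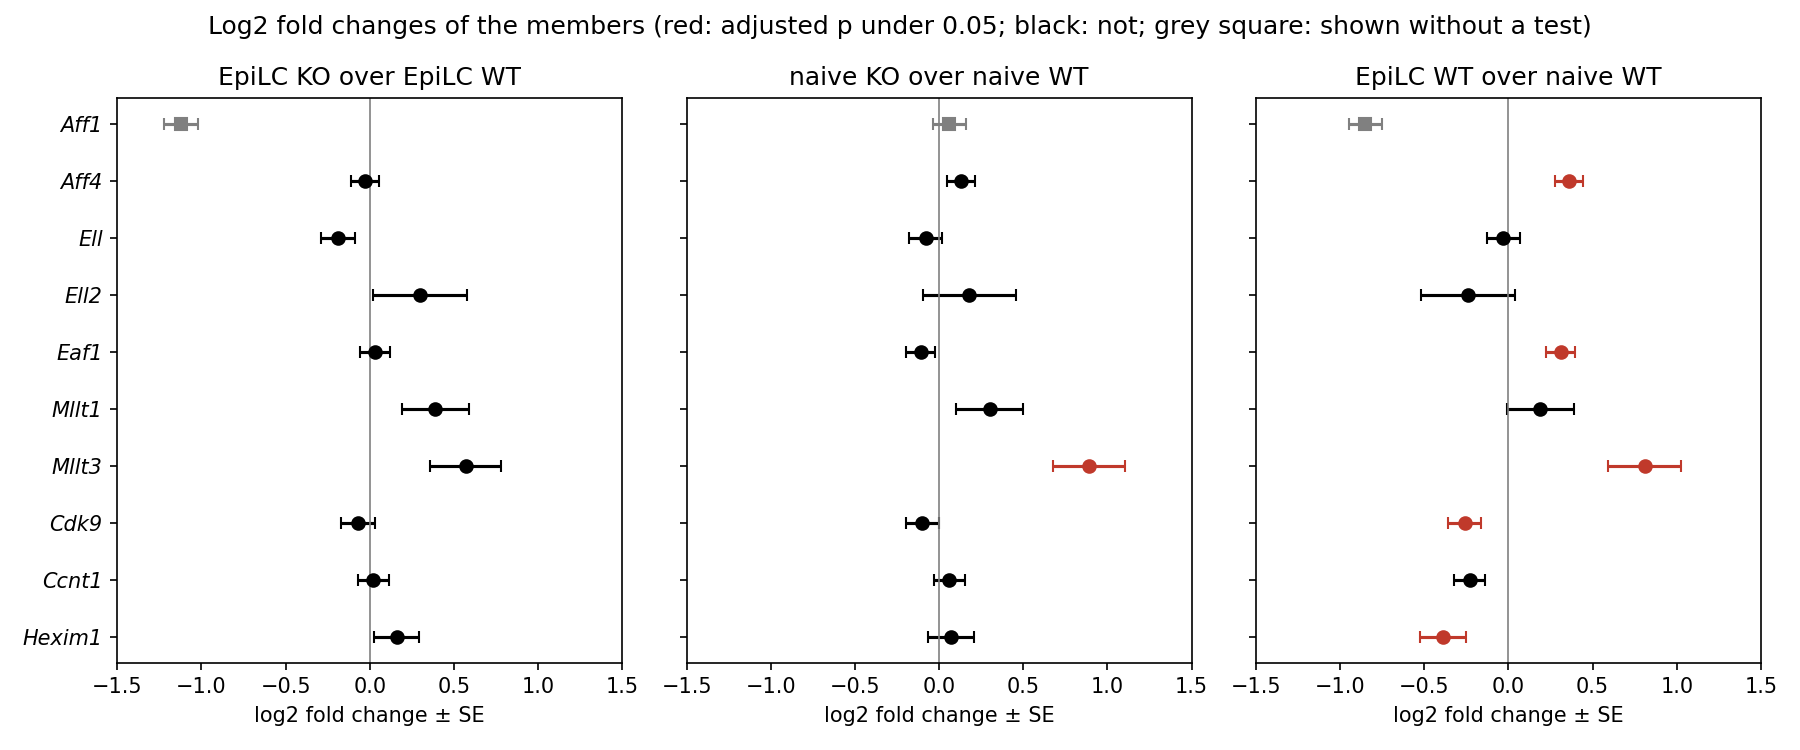
Log2 fold change ± SE of the 10 genes in EpiLC KO over EpiLC WT (left), naive KO over naive WT (middle) and EpiLC WT over naive WT (right), from 1 edgeR fit of the 12 libraries. Red circles have an adjusted p under 0.05, black circles do not, and grey squares mark Aff1, given without a test; between KO and WT the red circle is Mllt3 in naive cells, at 0.89.

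Mllt3, which encodes AF9, a YEATS-domain reader of acetylated histones, was the member called in naive KO. It had 14.1, 10.1 and 12.2 CPM in EpiLC KO, against 8.2, 7.0 and 9.2 CPM in EpiLC WT, and 8.8, 8.1 and 8.8 CPM in naive KO, against 5.4, 3.3 and 5.2 CPM in naive WT. KO lay above WT without overlap in both conditions, where 33.3% of all genes tested did not overlap in EpiLCs and 30.4% in naive cells. Mllt3 rose by 0.89 ± 0.216 in naive KO (edgeR adjusted p = 0.0235) and differed by 0.57 ± 0.212 in EpiLC KO (adjusted p = 0.0875, DESeq2 adjusted p = 0.0316). The effects in the 2 conditions differed by -0.31 ± 0.301 (adjusted p = 0.736). The naive call ended without naive KO replicate 1, 2 or 3 (adjusted p of 0.0933, 0.0543 and 0.0536), without naive WT replicate 2 or 3 (0.0798 and 0.0569), and with the 6 naive libraries fitted alone (0.0533). These values rest on 103 to 613 counts per library.

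Mllt3 also rose in EpiLC WT over naive WT, by 0.81 ± 0.216 (edgeR adjusted p = 0.00706), with no overlap, where 59.2% of all genes tested did not overlap. Mllt1 was the more abundant of the pair: Mllt3 made up 5.18%, 2.93% and 5.88% of their sum per kilobase in EpiLC KO, against 3.59%, 3.6% and 4.54% in EpiLC WT, and 2.99% to 5.33% in naive KO, against 2.04% to 2.82% in naive WT.

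Mllt1, which encodes ENL, varied between the KO clones. It had 84.0, 109.1 and 63.5 CPM in EpiLC KO, against 71.7, 61.3 and 63.2 CPM in EpiLC WT, and 75.1, 86.2 and 51.2 CPM in naive KO, against 60.9, 51.7 and 60.0 CPM in naive WT. KO replicates 1 and 2 lay above every WT library of their condition and KO replicate 3 lay among or below them. The log2 fold change was 0.39 ± 0.201 in EpiLCs (edgeR adjusted p = 0.215) and 0.30 ± 0.201 in naive cells (adjusted p = 0.399). Its 20 flanking tested genes, over 0.49 Mb of chromosome 17, followed the same order of KO replicates. Relative to the WT mean of the condition, their median log2 level was 0.138, 0.401 and -0.055 in EpiLC KO replicates 1, 2 and 3 and 0.200, 0.380 and -0.229 in naive KO replicates 1, 2 and 3. Mllt1 itself was at 0.365, 0.742 and -0.039 in EpiLC KO and 0.388, 0.588 and -0.164 in naive KO. In EpiLC WT replicates 1, 2 and 3 the flanking median was 0.149, -0.084 and -0.102, so replicate 1 lay above EpiLC KO replicate 1. In naive WT replicates 1, 2 and 3 it was 0.025, 0.022 and -0.009. Flanking genes were computed for all 10 members. Those of Ccnt1 had medians of 0.339, 0.355 and 0.260 in naive KO, where Ccnt1 itself was at 0.011, 0.027 and 0.155. Whether the genes flanking Mllt1 share a cause with it was not tested.

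**Figure D4:**
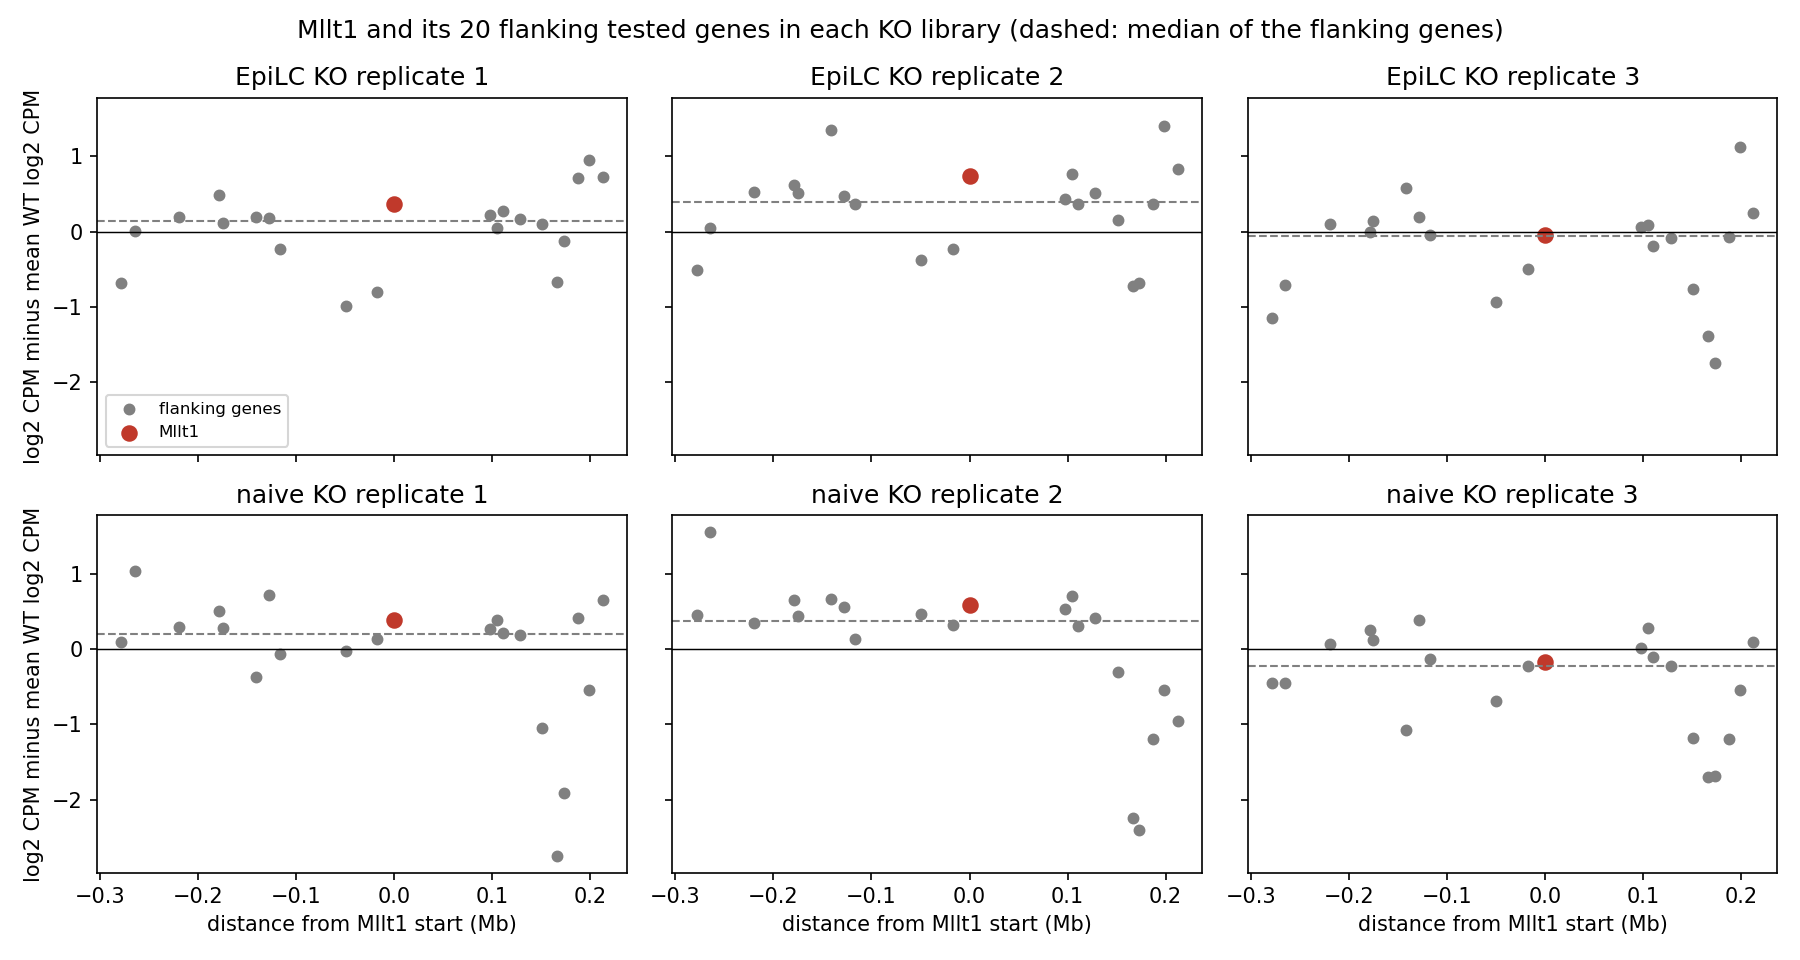
Log2 CPM in each KO library minus the mean log2 CPM of the WT libraries of the same condition (y) for Mllt1 (red) and its 20 flanking tested genes (grey), by distance of the gene start from that of Mllt1 in Mb (x). The dashed line is the median of the flanking genes, which is highest in replicate 2 of both conditions (0.401 in EpiLC KO and 0.380 in naive KO) and below 0 in replicate 3.

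The elongation factors ELL and ELL2, which raise the speed of the polymerase, gave no call. Ell had 31.7, 34.6 and 30.7 CPM in EpiLC KO, against 38.1, 34.9 and 37.9 CPM in EpiLC WT. The groups did not overlap, as 33.3% of all genes tested did not, although 34.6 and 34.9 CPM lie side by side. The Ell log2 fold change was -0.19 ± 0.0998 (edgeR adjusted p = 0.211, 95% interval -0.42 to 0.04), and its 20 flanking genes had a median of -0.285. In naive cells Ell had 36.1, 33.7 and 37.2 CPM in KO, against 35.7, 38.6 and 38.6 CPM in WT, with overlap.

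Ell2 was the least even of the 10 genes among control EpiLCs. It had 51.8, 45.0 and 56.7 CPM in EpiLC KO, against 23.1, 65.1 and 36.1 CPM in EpiLC WT, and the high control value belonged to replicate 2, the library with the highest naive markers. The log2 fold change was 0.30 ± 0.278 (edgeR adjusted p = 0.501), and without that library it was 0.79 (adjusted p = 0.0194), so whether Ell2 was called depended on 1 control library. In naive cells Ell2 had 56.5, 62.5 and 47.7 CPM in KO, against 41.4, 51.2 and 54.4 CPM in WT, with overlap. Ell2 made up 34.1%, 29.1% and 36.9% of the sum of Ell2 and Ell per kilobase in EpiLC KO, against 16.1%, 37.1% and 23.2% in EpiLC WT.

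Eaf1, a partner of the ELL proteins, was called between conditions and not between genotypes. It had 126.2, 144.1 and 148.3 CPM in EpiLC KO, against 136.5, 142.8 and 130.8 CPM in EpiLC WT, and 100.2, 105.8 and 101.1 CPM in naive KO, against 104.2, 116.9 and 110.9 CPM in naive WT. KO and WT overlapped in both conditions, with log2 fold changes of 0.03 ± 0.0881 in EpiLCs (edgeR adjusted p = 0.86) and -0.11 ± 0.0882 in naive cells (adjusted p = 0.484). EpiLCs lay above naive cells without overlap in either genotype, by 0.45 ± 0.0883 in KO (adjusted p = 0.000887) and 0.31 ± 0.0883 in WT (adjusted p = 0.011). The WT call ended without naive WT replicate 1 (0.0605) and with no filter (0.0513). Between conditions 64.2% of all genes tested did not overlap in KO and 59.2% in WT, so such a gap was common. Eaf1 shares 139 bp of exon with Mettl6 on the opposite strand, 2.53% of its exon length, and reads there cannot be assigned to a strand in these counts.

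Cdk9, the kinase subunit of P-TEFb, had 94.9, 109.6 and 108.6 CPM in EpiLC KO, against 113.0, 114.0 and 101.3 CPM in EpiLC WT, and 126.2, 112.5 and 128.1 CPM in naive KO, against 139.3, 119.0 and 133.5 CPM in naive WT. Ccnt1, which encodes its cyclin T1, had 103.4, 89.3 and 106.6 CPM in EpiLC KO, against 92.6, 100.8 and 100.9 CPM in EpiLC WT, and 115.9, 117.2 and 128.1 CPM in naive KO, against 115.2, 109.5 and 120.6 CPM in naive WT. KO and WT overlapped for both subunits in both conditions. Ccnt1 shares 7.59% of its exon length with an antisense transcript that has 361 counts in all. The Cdk9 log2 fold change was -0.07 ± 0.099 in EpiLCs (edgeR adjusted p = 0.688), with a 95% interval of -0.30 to 0.16. For Ccnt1 it was 0.02 ± 0.0929 (edgeR adjusted p = 0.891), with an interval of -0.19 to 0.24.

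Hexim1, the inhibitor that holds P-TEFb with 7SK RNA, had 58.0, 62.4 and 66.8 CPM in EpiLC KO, against 62.7, 52.8 and 51.8 CPM in EpiLC WT, and 74.9, 68.5 and 86.6 CPM in naive KO, against 85.2, 61.6 and 72.6 CPM in naive WT. KO and WT overlapped in both conditions, and the log2 fold change was 0.16 ± 0.135 in EpiLCs (edgeR adjusted p = 0.459). The ratio of Hexim1 to Cdk9 per kilobase was 0.806, 0.752 and 0.812 in EpiLC KO, against 0.732, 0.611 and 0.675 in EpiLC WT. It was 0.783, 0.803 and 0.892 in naive KO, against 0.807, 0.683 and 0.718 in naive WT. These ratios did not overlap in EpiLCs, although 0.752 in KO and 0.732 in WT lie close, and they overlapped in naive cells. The levels of 33.3% of all genes tested did not overlap between EpiLC KO and EpiLC WT. The ratio of Ccnt1 to Cdk9 overlapped in EpiLCs (0.411 to 0.549 in EpiLC KO, against 0.412 to 0.502 in EpiLC WT). The ratios were not tested.

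Across the transition in control cells, 3 of the 9 genes other than Aff1 rose in EpiLC WT over naive WT (Aff4, Eaf1 and Mllt3) and 2 fell (Cdk9 and Hexim1), where 52.7% of all genes tested were called (26.4% higher and 26.3% lower). The median log2 fold change of the 9 was -0.03, against -0.014 over all genes. Cdk9 fell by 0.26 ± 0.0991 (edgeR adjusted p = 0.0453) and Hexim1 by 0.39 ± 0.135 (adjusted p = 0.0273). The EpiLC WT and naive WT libraries overlapped for Hexim1 and not for Cdk9, where 59.2% of all genes tested did not overlap. The Cdk9 call ended without EpiLC WT replicate 1 or 3 (adjusted p of 0.0611 and 0.161) or naive WT replicate 1 or 3 (0.125 and 0.1), and under 6 of 7 other settings (0.0507 to 0.164). The Hexim1 call ended without EpiLC WT replicate 2 or 3 (0.0673 and 0.0955) or naive WT replicate 1 or 3 (0.117 and 0.0547), and with upper quartile scaling (0.0707). With the clone as a block, Ccnt1 was called too, at -0.23 (adjusted p = 0.0329), against an adjusted p of 0.0528 without it, and 57.8% of all genes were called.

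In knockout cells, 1 of the 9 genes other than Aff1 rose in EpiLC KO over naive KO (Eaf1, 0.45) and 1 fell (Ccnt1, by 0.27 ± 0.0929, edgeR adjusted p = 0.0253), where 55.2% of all genes were called (27.1% higher and 28.1% lower). The Ccnt1 call ended without EpiLC KO replicate 2 or naive KO replicate 1, 2 or 3 (adjusted p of 0.117, 0.057, 0.0662 and 0.144), with upper quartile scaling (0.225), with no filter (0.0753) and with the 6 KO libraries alone (0.0628). With the clone as a block, 6 of the 9 were called, near the 60.9% of all genes called in that fit: Aff4 at 0.20 (adjusted p = 0.0369), Mllt1 at 0.27 (0.0162), Mllt3 at 0.48 (0.0276) and Hexim1 at -0.29 (0.0194) were added. All 6 had the sign of their value in EpiLC WT over naive WT. The transitions in KO and in WT are compared by the interaction alone, which called 0 of the 9 genes, also with the clone as a block.

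The genes whose pattern over the 12 libraries lay nearest to that of Aff1 were Asns, Ttc39b, Bcat1, Gm2a and Ifnlr1. Likeness was the root mean square difference of log2 CPM, each gene centred on its own mean, over 10092 named genes with a mean of at least 5 CPM, and these 5 genes were at 0.209, 0.223, 0.225, 0.232 and 0.237. Asns, which encodes asparagine synthetase, had 172.9, 197.5 and 199.8 CPM in EpiLC KO, against 446.0, 395.2 and 448.7 CPM in EpiLC WT, and 868.1, 1082 and 900.0 CPM in naive KO, against 975.0, 1123 and 939.8 CPM in naive WT. Bcat1, a branched-chain aminotransferase, had 243.1, 265.1 and 329.7 CPM in EpiLC KO, against 587.5, 476.5 and 436.6 CPM in EpiLC WT, and 1115 to 1303 CPM in naive KO, against 1193 to 1278 CPM in naive WT. These 5 genes were chosen for their likeness to Aff1, so their group order restates the choice. The other 9 members lay at 0.717 (Cdk9, rank 3868 by nearness among all tested genes) to 1.27 (Mllt3, rank 13573).

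The Asns window is shown beside those of Aff1 because its pattern was the nearest. Capitals mark GGGCGG or its reverse complement and the letters TGATGNAA, the C/EBP-ATF response element known from this promoter.
Asns, chr6:7693160-7693459, - strand: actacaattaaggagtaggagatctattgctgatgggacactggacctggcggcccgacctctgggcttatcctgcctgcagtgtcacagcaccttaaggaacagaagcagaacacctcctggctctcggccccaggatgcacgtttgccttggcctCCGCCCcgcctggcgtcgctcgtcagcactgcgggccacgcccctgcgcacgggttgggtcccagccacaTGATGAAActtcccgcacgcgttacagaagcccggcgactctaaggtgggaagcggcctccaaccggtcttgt
The Asns match to TGATGNAA was TGATGAAA, at bases 228 to 235 of the window. Of the 12 windows of the 10 members, both Aff1 windows included, 0 held TGATGNAA on either strand, against 3.97% of all windows.

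Other parts of the elongation machinery were read from lists of 31 genes, of which 30 were tested. Between EpiLC KO and EpiLC WT 1 rose and 1 fell by edgeR, where 15.1% of all genes were called, and the median log2 fold change was -0.08. Of the 30 genes, 8 had an unadjusted p under 0.05 and DESeq2 called 5. No share of all genes is given at either setting, so these counts are not read against the 15.1%. The alternatives tried for this comparison, DESeq2 among them, called 1375 to 3547 of all genes. Between naive KO and naive WT 0 were called by edgeR or DESeq2, where edgeR called 9.23% of all genes and DESeq2 called 2516 genes. There 1 had an unadjusted p under 0.05, and the median was 0. Ctr9, a subunit of the PAF1 complex on which the super elongation complex docks, had 217.2, 207.6 and 236.6 CPM in EpiLC KO, against 188.5, 182.4 and 171.8 CPM in EpiLC WT, and rose by 0.29 ± 0.0866 (edgeR adjusted p = 0.0437). Its call ended without any single EpiLC library (adjusted p of 0.0556 to 0.146), with the 6 EpiLC libraries fitted alone (0.0754), with no filter (0.18) and with the replicate block (0.0628).

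Dot1l, the H3K79 methyltransferase that shares AF9 and ENL with the super elongation complex, had 138.8, 160.3 and 142.1 CPM in EpiLC KO, against 193.4, 168.4 and 198.3 CPM in EpiLC WT. The groups did not overlap, as 33.3% of all genes tested did not, and Dot1l fell by 0.34 ± 0.0919 (edgeR adjusted p = 0.0258). That call ended without EpiLC KO replicate 1 or 3 (adjusted p of 0.102 and 0.0808) or EpiLC WT replicate 1 or 3 (0.0673 and 0.0874), and with the 6 EpiLC libraries alone (0.0918). The 6 NELF and DSIF genes all had values below 0 in EpiLC KO over EpiLC WT (-0.33 to -0.04), and 0 of them were called (adjusted p of 0.0725 to 0.857; the lowest is that of Nelfa). Larp7 and Mepce, which encode proteins that bind 7SK RNA in the inactive particle, had log2 fold changes of 0.08 and -0.07 in EpiLC KO over EpiLC WT, with no call (edgeR adjusted p of 0.703 and 0.764).

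**Figure D5:**
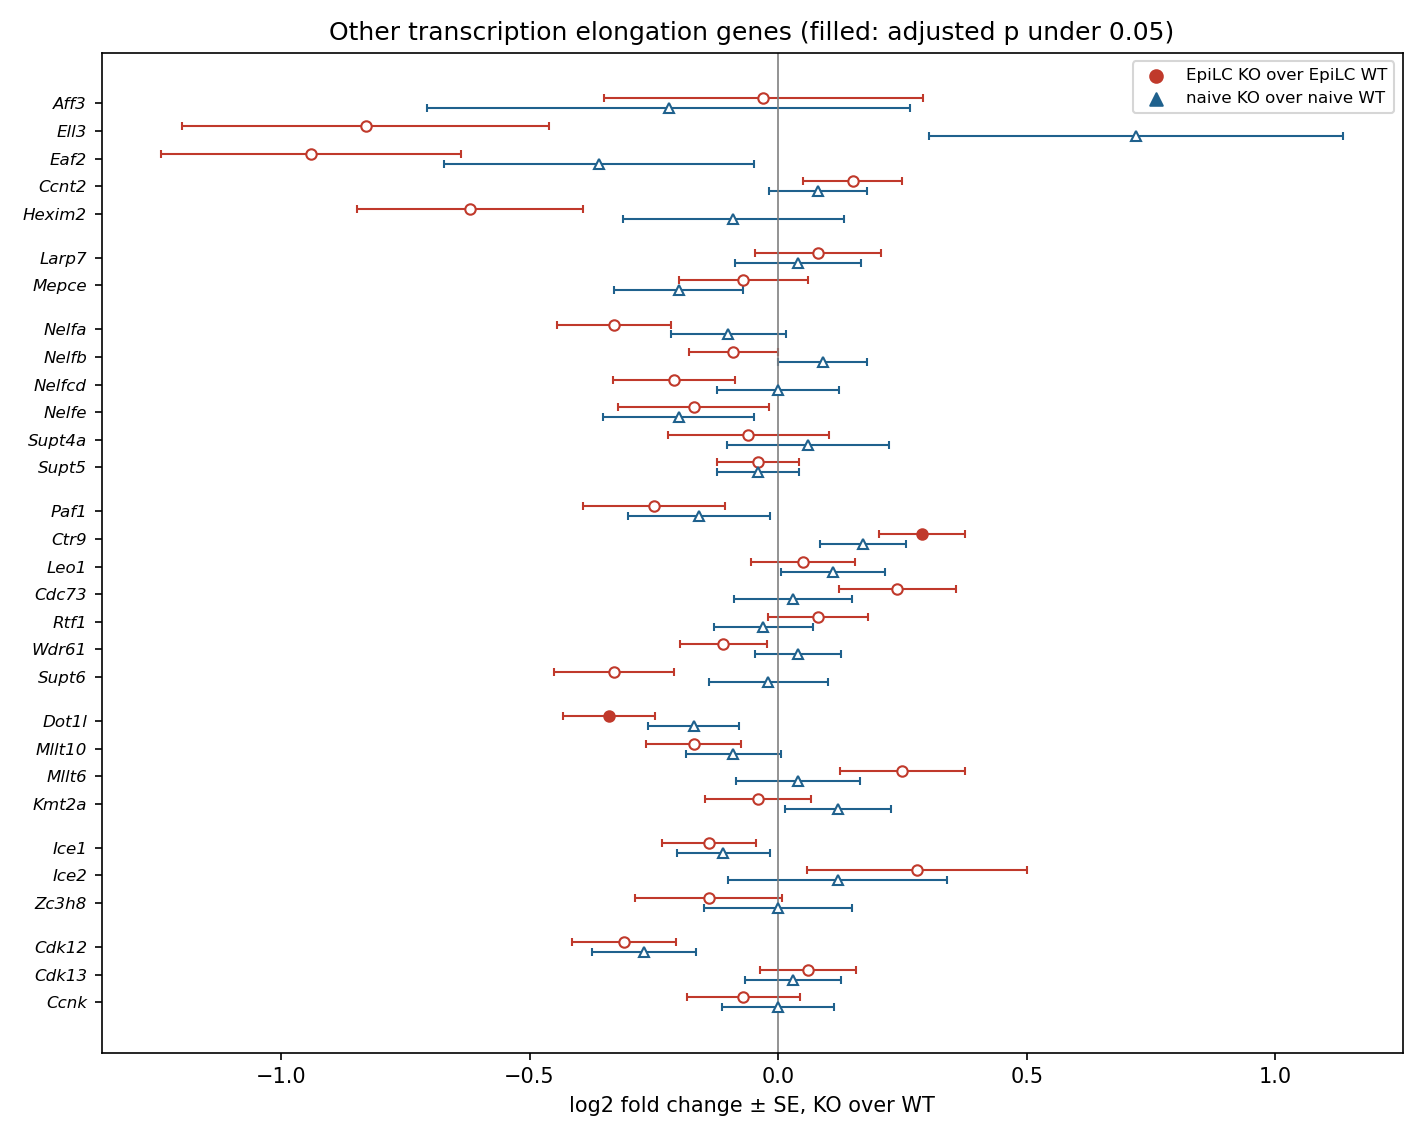
Log2 fold change ± SE of 30 other elongation genes, grouped by complex, in EpiLC KO over EpiLC WT (red circles) and naive KO over naive WT (blue triangles). Filled symbols have an edgeR adjusted p under 0.05; these are Ctr9 at 0.29 and Dot1l at -0.34, both in EpiLCs.

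Of the further paralogs of the members, 5 of 6 were tested and 0 were called between KO and WT in either condition. Of all genes tested, 15.1% were called in EpiLCs and 9.23% in naive cells. The median of the 5 in EpiLC KO over EpiLC WT was -0.62. Eaf2 (-0.94 ± 0.302, edgeR adjusted p = 0.0543), Hexim2 (-0.62 ± 0.228, 0.086) and Ell3 (-0.83 ± 0.369, 0.151) lay lower in EpiLC KO without overlap, as 33.3% of all genes did in either direction. Aff3 and Ccnt2 overlapped, and Ell3 was at 0.225 to 0.476 CPM in EpiLC KO. Aff3, a further AFF gene, had 35.3, 39.5 and 23.9 CPM in EpiLC KO, against 41.1, 14.7 and 44.7 CPM in EpiLC WT, and 0.418 to 0.554 CPM in naive KO, against 0.505 to 0.673 CPM in naive WT. It rose with the transition in both genotypes, by 6.08 ± 0.434 in EpiLC KO over naive KO (edgeR adjusted p = 2.6e-07) and by 5.89 ± 0.428 in EpiLC WT over naive WT (adjusted p = 3.51e-07), and its KO and WT levels overlapped. Aff2 was at 0 to 0.138 CPM and was not tested.

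Of 15 rapidly induced genes, of kinds the super elongation complex is known to serve, 14 were tested. In EpiLC KO over EpiLC WT 1 rose (Junb) and 3 fell (Dusp1, Ier3 and Atf3), and in naive KO over naive WT 1 rose (Dusp1) and 2 fell (Hspa1a and Hspa1b), where 15.1% of all genes were called in EpiLCs and 9.23% in naive cells. Their median log2 fold change was 0.415 in EpiLCs and -0.165 in naive cells, so the list did not move one way. Dusp1, a phosphatase of MAP kinases, had 26.2, 27.4 and 23.3 CPM in EpiLC KO, against 44.0, 73.4 and 47.6 CPM in EpiLC WT, and 37.9, 42.0 and 36.8 CPM in naive KO, against 17.4, 22.9 and 25.0 CPM in naive WT. It fell by 1.1 ± 0.19 in EpiLC KO (edgeR adjusted p = 0.00312) and rose by 0.84 ± 0.19 in naive KO (adjusted p = 0.0171). The naive call was lost when naive KO replicate 1 or 2 (0.0599 and 0.0634) or naive WT replicate 1 (0.0774) was left out. Ier3 fell by 1.5 ± 0.306 in EpiLC KO (edgeR adjusted p = 0.00715) and Atf3 by 1.87 ± 0.545 (adjusted p = 0.0375), while Fos, at 0.804 to 0.958 CPM in EpiLC KO and 0.511 to 0.598 CPM in EpiLC WT, had an adjusted p of 0.174. The calls of Junb (0.67, edgeR adjusted p = 0.0339) and Atf3 each ended without any single EpiLC library other than EpiLC WT replicate 2 (adjusted p of 0.0651 to 0.098 for Junb and 0.0525 to 0.118 for Atf3). The Junb call also ended with the 6 EpiLC libraries alone (0.058) and the Atf3 call with the replicate block (0.052). In naive cells the Hspa1b call ended without naive KO replicate 2 (0.0564). The Hspa1a call (edgeR adjusted p = 0.0383) ended without naive KO replicate 1, 2 or 3 (0.105, 0.126 and 0.0566), without naive WT replicate 2 or 3 (0.0799 and 0.146), with no filter (0.0638) and with DESeq2 (0.0699). Over all genes the median was 0 in both comparisons. Hspa1a was at 0.056 to 0.123 CPM in naive KO, against 0.224 to 0.505 CPM in naive WT, close to the filter on low counts. Hspa1b was at 1.226 to 1.723 CPM in naive KO, against 2.819 to 3.493 CPM in naive WT. Hspa1a and Hspa1b are near-identical copies that can share reads, so their separate calls are uncertain. Larp7, Mepce, Nelfa, Aff2, Aff3, Eaf2, Ell3, Hexim2, Ccnt2, Fos, Atf3, Hspa1a, Thy1, Foxa2, Afp, Sox7, Sox17 and Eomes were named after their values were seen.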

How the data were processed

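Polyadenylated RNA was prepared with Trizol and the TruSeq Stranded mRNA kit, per the labels' protocols. The deposited values are unnormalised read counts for each gene, made by the authors with featureCounts 2.0.1 on GENCODE vM25, per the file headers; the labels name build GRCm38. The header shows no strand option, and with that tool's defaults strand is ignored, which touches overlapping antisense genes. The other deposited column holds summed exon length (bp) and served for levels per kilobase.

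Counts were scaled by TMM in edgeR 4.0.16 (R 4.3.3). Genes were kept by filterByExpr (minimum count 10, minimum total count 15). A quasi-likelihood fit of all 12 libraries (8 residual degrees of freedom) gave 5 contrasts: KO against WT in EpiLCs and in naive cells, their difference, and EpiLC against naive in KO and in WT. Genes with a Benjamini-Hochberg adjusted p under 0.05 over all 18134 genes were called. SE is the log2 fold change divided by the root of F, and 95% intervals use it with 8 degrees of freedom. The quasi-likelihood test also draws degrees of freedom from all genes, so these intervals are wider than its p-values imply. DESeq2 1.42.0, other scalings, no filter, blocks and left-out libraries were alternatives. The edgeR step was tested on simulated data.

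Same-numbered naive and EpiLC libraries deviated together (correlations of 0.145, 0.234 and 0.264 in KO and 0.236, 0.235 and 0.218 in WT, all over 0.1). The clone block took equal numbers within a genotype as the same clone, whereas equal numbers in KO and WT do not pair clones. Differently numbered naive and EpiLC libraries of a genotype were at -0.248 to 0.048. EpiLC KO replicate 1 with EpiLC WT replicate 3 gave 0.287, and EpiLC KO replicate 3 with EpiLC WT replicate 2 gave 0.204. Those pairs share no clone, so a correlation over 0.1 does not by itself show a shared clone. No 2 libraries held identical counts.

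The members and lists were chosen with earlier results of these data known. Named genes were Pcbp1, the members, up to 4 called genes of each further list by adjusted p, the 5 genes nearest to Aff1, and genes overlapping a member; the report names the few others. A test of Aff1 between conditions in WT was planned and is not used, because both groups entered the choice of Aff1. Sequences are from RefSeq.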

Additional observations from a re-analysis of the deposited data

Results flagged for a closer look

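The effect of the Pcbp1 knockout on Dusp1, one of the rapidly induced genes, differed between the conditions by -1.94 ± 0.269 on the log2 scale (the EpiLC effect minus the naive effect, edgeR adjusted p = 0.0165). All 3 EpiLC KO libraries lay below all EpiLC WT libraries, and all 3 naive KO libraries lay above all naive WT libraries. In either direction, 33.3% of all genes tested did not overlap in EpiLCs and 30.4% in naive cells. Leaving out single libraries gave -2.08 to -1.67, and the call ended without EpiLC KO replicate 1 (adjusted p = 0.0633) or EpiLC KO replicate 2 (adjusted p = 0.0509).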

How the results depend on the processing

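Under the alternatives tried, the number of genes called between EpiLC KO and EpiLC WT (2734) was 1375 to 3117 without single libraries, with 1375, 1814 and 1754 without EpiLC KO replicate 1, EpiLC KO replicate 3 and EpiLC WT replicate 3. Over all alternatives its highest value was 3547. The naive number (1673) was 2516 with DESeq2 and 678 to 1744 without single libraries. The interaction number (69) was 516 with DESeq2, 564 with no filter, 30 with the replicate block, 228 with the clone as a block and 3 to 149 without single libraries; the cause was not tested. Members other than Aff1 called were 1 with DESeq2 and 0 to 1 without single libraries in EpiLCs, 0 with the naive libraries alone and 0 to 1 without single libraries in naive cells. In EpiLC KO over naive KO they were 4 with DESeq2 size factors, 4 with DESeq2, 1 with no filter, 6 with the clone block and 1 to 2 without single libraries, and in EpiLC WT over naive WT (5) 3 with upper quartile scaling, 3 with no filter and 2 to 6 without single libraries. Over the alternatives, 9030 to 11071 of all genes were called in EpiLC KO over naive KO and 8255 to 10484 in EpiLC WT over naive WT. These member counts are therefore not read as a result about the members. The replicate number block gained Mllt3 (adjusted p = 0.0372) in EpiLC KO over naive KO and Ccnt1 (0.0498) in EpiLC WT over naive WT, and lost Cdk9 (0.0663) there and Ctr9 (0.0628). Upper quartile scaling moved the median of all genes by 0.132 in EpiLC KO over naive KO and Aff1 there to -1.89; it turned uncalled values near 0 to 0.01 (Aff4 in EpiLC KO), 0 (Ccnt1 interaction), 0.01 (Ell2, KO transition) and 0.06 (Ell, WT transition). Without single libraries uncalled signs turned within -0.08 to 0 (Aff4), -0.02 to 0.10 (Eaf1) and -0.03 to 0.10 (Ccnt1) in EpiLC KO over WT, -0.02 to 0.07 (Ccnt1) and -0.07 to 0.16 (Hexim1) in naive KO over WT, -0.17 to 0.61 (Ell2), -0.13 to 0.29 (Mllt1), -0.03 to 0.13 (Cdk9) and -0.09 to 0.05 (Ccnt1) in the interaction, and -0.08 to 0.01 (Ell) and -0.73 to 0.05 (Ell2) in EpiLC WT over naive WT. With 3 clones a group, Mllt3 and Ell2 are the members whose KO values are least certain, with 95% intervals of 0.09 to 1.06 and -0.34 to 0.95 in EpiLCs.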
